A study of Mus musculus with 2 samples.

Results

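The miR-137, miR-128 and miR-138 families are 3 groups of brain-enriched microRNAs that act at synapses, and in the mouse they are made from 5 hairpin genes. These are Mir137, the copies Mir128-1 and Mir128-2, and the copies Mir138-1 and Mir138-2. They were picked by symbol, through their Ensembl identifiers, from the 1973 microRNA genes of the count tables, and all 5 were found. Small RNA had been sequenced from whole forebrains of newborn mice (postnatal day 0, strain B6NCrl, sex not collected). Replicate 1 is a single forebrain labelled pup 1 and replicate 2 a single forebrain labelled pup 3, with the same donor record for both. They form 1 group of 2 libraries, with no treatment and no genotype beside the strain, so the data describe levels and the spread between pups and hold no contrast between conditions. Pup 1 had 9037087 and pup 3 had 7678662 reads assigned to a microRNA gene.

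A microRNA is cut from a folded hairpin transcript as a short duplex, and the arm loaded into Argonaute pairs through its seed, bases 2 to 8, with messenger RNAs that it represses. miR-137 is known for its role in the maturation of neurons and in synaptic function. miR-128 is known to restrain neuronal excitability in the mouse brain, and miR-138 was described in dendrites, where it limits the size of spines.

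The mature sequences are shown because the seeds define the families and because the copies of a family share one arm in full. They are written 5′ to 3′ with the seed in capitals, from RefSeq on GRCm38.p6, where all 5 genes matched.

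miR-137-3p: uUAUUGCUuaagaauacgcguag

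miR-137-5p: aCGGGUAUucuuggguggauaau

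miR-128-3p: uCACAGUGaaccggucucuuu

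miR-128-1-5p: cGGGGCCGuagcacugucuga

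miR-128-2-5p: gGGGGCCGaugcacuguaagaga

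miR-138-5p: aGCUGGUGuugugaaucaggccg

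miR-138-1-3p: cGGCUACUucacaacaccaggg

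miR-138-2-3p: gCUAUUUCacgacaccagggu

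miR-128-3p is made by both Mir128 copies and miR-138-5p by both Mir138 copies. The opposite arms differ between copies. In miR-128 these arms, miR-128-1-5p and miR-128-2-5p, still share the seed GGGGCCG, whereas the seeds of miR-138-1-3p and miR-138-2-3p differ. Of 1679 mature microRNA names in the RefSeq table, 0 outside the 5 genes had the seed of any of these arms. The letters CACAGUG of the miR-128-3p seed occurred elsewhere within the first 10 bases of 4 other microRNAs, a search chosen after the data were seen. These were miR-27a-3p, miR-27b-3p, miR-216a-3p and miR-497b.

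The hairpins show how far the copies can be told apart by a short read. Below, capitals mark the longest run that a hairpin has in common with the other copy of its family.

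Mir128-1: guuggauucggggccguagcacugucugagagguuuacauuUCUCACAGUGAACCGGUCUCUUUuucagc

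Mir128-2: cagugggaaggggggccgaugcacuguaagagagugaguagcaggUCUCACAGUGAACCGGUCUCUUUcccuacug

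Mir138-1: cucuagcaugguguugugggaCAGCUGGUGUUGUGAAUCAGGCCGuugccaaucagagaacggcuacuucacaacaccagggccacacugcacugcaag

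Mir138-2: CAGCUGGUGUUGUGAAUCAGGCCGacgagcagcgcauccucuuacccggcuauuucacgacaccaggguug

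The run shared by the Mir128 hairpins is 23 bases long. It holds all 21 bases of miR-128-3p and 2 bases before it, and it ends with the last base of that arm. The run shared by the Mir138 hairpins is 24 bases long, with the 23 bases of miR-138-5p and 1 base before it, and it also ends with the arm. A read of exactly the annotated miR-128-3p or miR-138-5p therefore has the same letters at both copies, while a read that runs 1 base past the arm does not. Over the aligned part, 74.3% of 74 columns were identical between the Mir128 hairpins and 67.1% of 79 columns between the Mir138 hairpins.

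Mir137 has no copy, and its hairpin is shown with both annotated arms in capitals.

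Mir137: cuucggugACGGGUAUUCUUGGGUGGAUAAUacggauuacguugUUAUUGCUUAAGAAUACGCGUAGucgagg

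Of the 52 windows of 22 bases on this hairpin, all 52 were absent from every other hairpin among the 1005 in the RefSeq table. The same held for 47 of 49 windows on Mir128-1, 53 of 55 on Mir128-2, 75 of 78 on Mir138-1 and 47 of 50 on Mir138-2. In a search of 141767 GENCODE transcripts, Mir137 had 0 exact stretches of 18 bases or more in transcripts of another gene, hosts left aside. For the copies, the only stretches above 19 bases lay in the other copy or in the transcript that hosts it. In the tables, the tally of reads with several mapping places held 43.0% of the library of pup 1 and 43.5% of that of pup 3, and these reads belong to no gene. The counts of both Mir128 and both Mir138 copies are uncertain for this reason. How many reads of miR-128-3p or miR-138-5p went to that tally was not tested.

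**Figure D1:**
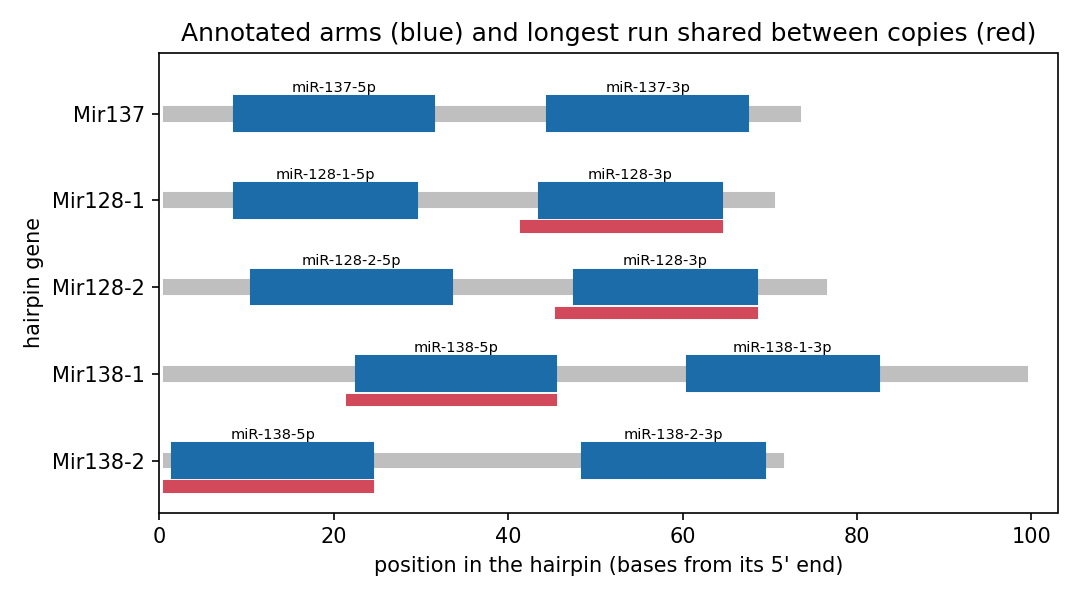
Map of the 5 hairpins, one per row, with the position in bases from the 5′ end of the hairpin on the x axis. Grey bars are hairpins, blue boxes the annotated mature arms, and red bars the longest run shared between the copies of a family (23 bases in miR-128, 24 in miR-138). The red bars end where the shared arm ends, and Mir137 has none.

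The copies of miR-128 lie in introns of a pair of related genes, while the other hairpins overlap exons of noncoding genes. Positions are on GRCm38 (GENCODE M21). Mir128-1 (ENSMUSG00000065520.1, plus strand, chr1:128202361-128202430) lies in an intron of R3hdm1, 99060 bases from the start of that gene. Mir128-2 (ENSMUSG00000065441.1, minus strand, chr9:112118636-112118711) lies in an intron of Arpp21, 117227 bases from its start. R3hdm1 and Arpp21 encode related proteins with an R3H nucleic-acid-binding domain, and Arpp21 is known as a phosphoprotein of striatal and cortical neurons. Mir137 (ENSMUSG00000065569.1, plus strand, chr3:118433857-118433929) overlaps an exon in all 3 transcripts of the noncoding gene Gm26871 that reach it. Mir138-1 (ENSMUSG00000065414.1, plus strand, chr9:122682876-122682974) overlaps an exon of Gm47135, annotated as a transcribed pseudogene. Mir138-2 (ENSMUSG00000065512.2, plus strand, chr8:94324311-94324381) overlaps an exon of C78859, a long intergenic noncoding RNA. All 5 hairpins have the strand of their host. RNA of the hosts is not analysed here, since the tables list microRNA genes.

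Only Gm26871 holds a further microRNA gene of the tables. This is Gm24155, 792 bases downstream of Mir137 on the same strand, with 1 count in each pup against 220009 and 257967 counts for Mir137. The neighbours therefore differed widely within both libraries.

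In base composition and folding the 5 hairpins lay within the range of other hairpins. GC content was 45.2% in Mir137, 50.0% in Mir128-1, 56.6% in Mir128-2, 54.5% in Mir138-1 and 57.7% in Mir138-2, beside a median of 51.7% over all RefSeq hairpins (percentile 25.6 for Mir137, the lowest of the 5). The predicted folding energy per base ran from -0.491 kcal/mol in Mir128-2 to -0.413 kcal/mol in Mir138-2, and the median hairpin had -0.406 kcal/mol.

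Together the 5 hairpins accounted for 3.31% of reads assigned to genes in pup 1 and for 4.54% in pup 3. miR-137 supplied most of this, with 73.5% of the reads of the 5 genes in pup 1 and 74.0% in pup 3. Mir137 has no copy, whereas reads that map to both copies of miR-128 or miR-138 are in no count. The shares of the miR-128 and miR-138 families can thus be too low beside that of miR-137, by an amount not tested. The miR-128 family took 0.764% in pup 1 and 0.974% in pup 3 (mean 0.869% ± 0.149, SD, n = 2). The miR-138 family took 0.115% and 0.208% (mean 0.162% ± 0.0653, SD, n = 2). Intervals for these shares cover counting error only, and no molecular identifiers are named. The 95% Wilson interval for the miR-138 share was 0.113 to 0.118% in pup 1 and 0.205 to 0.211% in pup 3, so counting error was far smaller than the gap between pups. In whole tissue, fewer cells of a type and less RNA per cell cannot be told apart.

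Levels below are counts per 1000000 assigned reads (CPM) per hairpin. Reads that map to both copies of a family are missing from the levels of the Mir128 and Mir138 hairpins, so the order describes counted reads. Mir137 had 24345 CPM in pup 1 and 33595 CPM in pup 3, a mean of 28970 ± 6541 (SD, n = 2), and ranked 8 and 5 among all genes by counted reads. Other microRNA families with several copies also lack the reads that map to several places. All ranks here can thus be better than the ranks of the microRNAs in the tissue, by an amount not tested. Mir128-1 had 5104 and 6733 CPM, ranks 43 and 28. Mir128-2 had 2539 and 3010 CPM, ranks 76 and 63 (mean 2774 ± 333, SD, n = 2). The miR-128 copies thus stood between Mir137 and the miR-138 copies in both pups.

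Mir138-1 had 767 CPM in pup 1 and 1406 CPM in pup 3 (mean 1086 ± 451, SD, n = 2), ranks 118 and 92. Mir138-2 had 387 and 672 CPM (mean 529.5 ± 202, SD, n = 2), ranks 146 and 116. The order Mir137, Mir128-1, Mir128-2, Mir138-1, Mir138-2 was the same in both pups, and on this scale the lower pup of each hairpin lay above the higher pup of the next. The spread between pups was widest for the miR-138 copies, with a coefficient of variation of 41.5% for Mir138-1 and 38.1% for Mir138-2, and 12.0% for Mir128-2. No test of the order was made, since only 2 pups stand behind each level.

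Per annotated base of the hairpin, the order within each pup was the same but the miR-138 copies overlapped. Mir138-1 had 7.75 and 14.2 CPM per base and Mir138-2 had 5.45 and 9.47 CPM per base, so the level of Mir138-2 in pup 3 lay above that of Mir138-1 in pup 1. Mir128-1 had 72.9 and 96.2 CPM per base, above the 33.4 and 39.6 CPM per base of Mir128-2. Mir137 had 333 and 460.2 CPM per base. The annotated hairpin of Mir138-1 is 99 bases long and that of Mir138-2 71, although the arms they yield are 21 to 23 bases, so both scales are given.

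**Figure D2:**
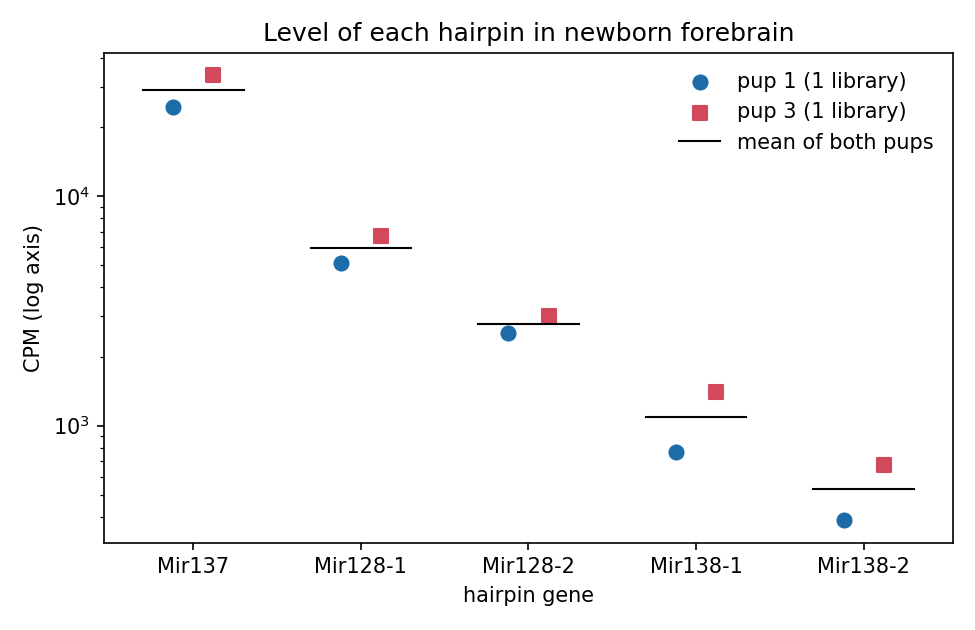
Level of each hairpin gene in CPM on a log axis, with pup 1 as circles, pup 3 as squares and the mean of both as a line. Pup 3 lies above pup 1 for all 5 hairpins, and the order from Mir137 (24345 and 33595 CPM) to Mir138-2 (387 and 672 CPM) is the same in both pups.

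Within each family, 1 copy held 66.5 to 69.1% of the reads counted at a single place. Mir128-1 had 66.8% of the reads of both Mir128 hairpins in pup 1 and 69.1% in pup 3. Mir138-1 had 66.5% of the reads of both Mir138 hairpins in pup 1 and 67.7% in pup 3. The leading copy was the same in both pups.

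Expressed as a ratio of counts per hairpin, Mir128-1 over Mir128-2 was 2.01 in pup 1 (95% exact binomial interval 1.98 to 2.04) and 2.24 in pup 3 (2.20 to 2.27). The intervals do not overlap, so for miR-128 the ratio differed between pups by more than counting error. Mir138-1 over Mir138-2 was 1.98 in pup 1 (1.90 to 2.07) and 2.09 in pup 3 (2.02 to 2.16), where the intervals overlap. The ratio of the miR-138 copies fell inside the range of the miR-128 ratios only in pup 3. Per annotated base, the mean ratio was 2.31 ± 0.174 for miR-128 and 1.46 ± 0.0548 for miR-138 (SD, n = 2), so the likeness of the families in this ratio depends on the scale. Reads that map to both copies are in none of these ratios.

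**Figure D3:**
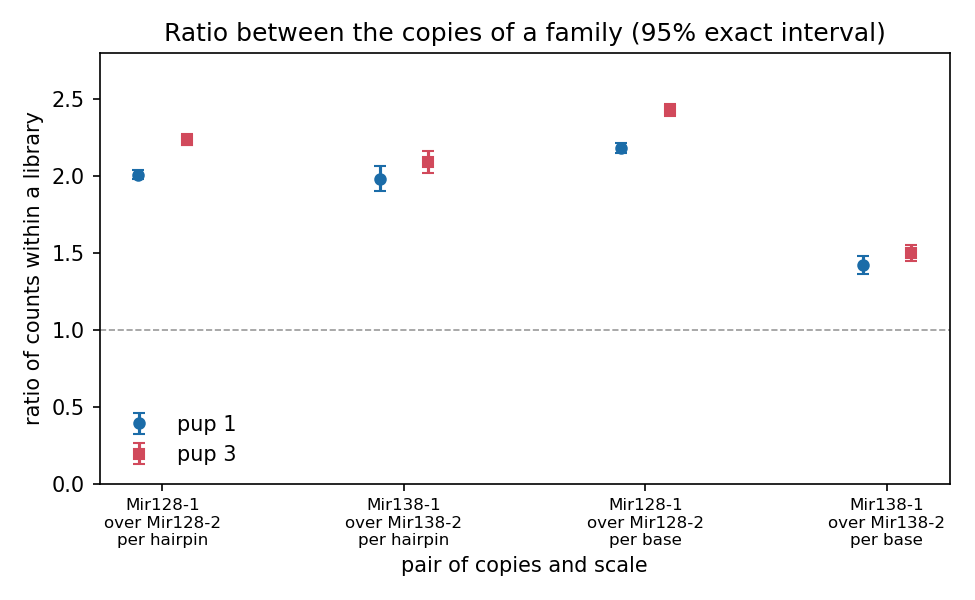
Ratio of counts between the copies of a family within each library, per hairpin (left pairs) and per annotated base (right pairs), for pup 1 (circles) and pup 3 (squares) with 95% exact binomial intervals. The dashed line marks equal counts. Per hairpin the ratios lie between 1.98 and 2.24, and per base the miR-138 ratio drops to 1.42 in pup 1.

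Ratios between families were also compared across the pups. Mir137 over Mir128-1 per hairpin was 4.77 in pup 1 and 4.99 in pup 3, and per annotated base 4.57 and 4.78. Mir128-2 over Mir138-1 per hairpin was 3.31 in pup 1 (3.22 to 3.40) and 2.14 in pup 3 (2.09 to 2.19), and per annotated base 4.31 and 2.79. The miR-138 copies thus gained on the miR-128 copies in pup 3. The ratio of Mir137 to Mir128-1 moved less, though its intervals do not overlap between the pups.

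All 5 hairpins were higher in pup 3 than in pup 1. Ratios were scaled by edgeR's TMM factors, which allow for the composition of the libraries, and tested with a two-sided exact binomial test and Benjamini-Hochberg adjustment over all 460 genes with 20 counts or more in total. The test compares these 2 libraries and sets their gap against counting error alone. Among all genes tested, 63.0% were called in either direction, 30.2% higher and 32.8% lower in pup 3, so a call of itself is common here. For the 5 hairpins, 5 of 5 were called higher. The 30.2% includes sparsely counted genes, whereas the 5 hairpins were counted deeply, where smaller gaps are called. Among the 102 genes averaging at least 1000 CPM, 54.9% had a TMM-scaled log2 ratio above 0, called or not. For the 214 averaging at least 100 CPM it was 48.6%. These shares are the nearer comparison for the 5 hairpins. The Mir128 and Mir138 hairpins are also copy pairs, so the 5 calls are not 5 separate observations.

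Mir138-1 had the largest ratio of the 5, with a log2 ratio (pup 3 to pup 1) of 1.07 (95% exact interval 1.03 to 1.12), which is 2.10-fold. Mir138-2 followed with 1.00 (0.93 to 1.06). Mir137 had 0.66 (0.66 to 0.67), Mir128-1 had 0.60 (0.58 to 0.62) and Mir128-2 had 0.45 (0.42 to 0.47). The largest adjusted p of the 5 was 7.52e-223, for Mir138-2, from the exact binomial test over all genes. The log2 ratios of the miR-138 copies differed by 0.08 and those of the miR-128 copies by 0.15, and Mir137 lay just above Mir128-1. The miR-138 copies thus stood apart from the other 3 hairpins, with intervals that do not overlap theirs.

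Scaled by total assigned counts the ratios were smaller, with log2 ratios of 0.46 for Mir137, 0.40 for Mir128-1, 0.25 for Mir128-2, 0.87 for Mir138-1 and 0.80 for Mir138-2. This scaling moved the median log2 ratio over all genes tested from -0.02 to -0.22, and 66.1% of genes were then called, 21.3% higher and 44.8% lower. All 5 hairpins were still called higher. Of 102 genes whose mean level reached 1000 CPM, 7 had a higher TMM-scaled log2 ratio than Mir138-1, 19 a higher one than Mir137 and 23 a higher one than Mir128-2. The median size of the TMM-scaled log2 ratio in either direction over these 102 genes was 0.33. It was 0.36 over the 214 genes of 100 CPM or more, which include Mir138-2. With TMM scaling each of the 5 hairpins lay above both medians, Mir128-2 by the least. No such median is given for total-count scaling.

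**Figure D4:**
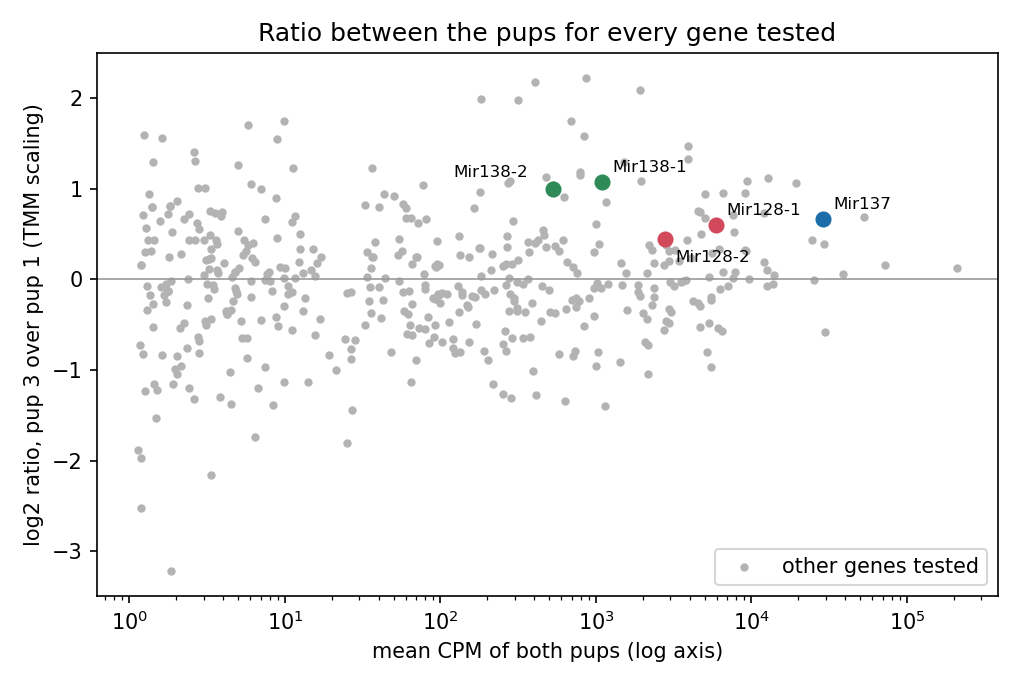
Log2 ratio of pup 3 over pup 1 with TMM scaling (y axis) against mean CPM on a log axis (x axis) for 460 genes tested, with the 5 hairpins coloured by family and all other genes in grey. The 5 hairpins lie between 0.45 and 1.07, above the line at 0, within the spread of the other genes.

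Reads of the 5 hairpins lay in the column read as their own strand. The columns have no headings and were named in part by where most reads of known microRNAs lay. The result is therefore no separate test of strand. The opposite strand held 0 counts for each hairpin in each pup, which allows a share of up to 0.00136% for Mir137 in pup 1 and of up to 0.0858% for Mir138-2 in pup 1, the deepest and the shallowest case there. Over all genes, the opposite strand held 2.69% of the reads of pup 1 and 1.91% of those of pup 3.

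Other neuronal and synaptic microRNAs were called in both directions. Of 26 listed hairpin genes, 25 were in the tables and all 25 were tested. By the same exact binomial test, 7 were called higher in pup 3, 11 were called lower and 7 were not called, where 30.2% of all genes tested were called higher and 32.8% lower. Their median log2 ratio was -0.16, beside -0.02 over all genes tested and a median of 0.66 over the 5 hairpins. The 5 hairpins include copy pairs, and hairpins and list were chosen with earlier results of these data known. No contrast between the sets was tested. Under total-count scaling 6 were called higher and 14 lower.

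The 3 most abundant of these genes were Mir135b, Mir381 and Mir153. Mir135b had 9927 CPM in pup 1 and 14329 CPM in pup 3 and a log2 ratio of 0.73 (95% exact interval 0.72 to 0.74). Mir381, of the imprinted 12qF1 cluster, had 4853 and 3594 CPM, with a log2 ratio of -0.23 (-0.26 to -0.21). Mir153 had 3901 and 3353 CPM and a log2 ratio of -0.02 (-0.04 to 0.00) and was not called. Mir135b alone of these 3 was called higher, as the 5 hairpins were.

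**Figure D5:**
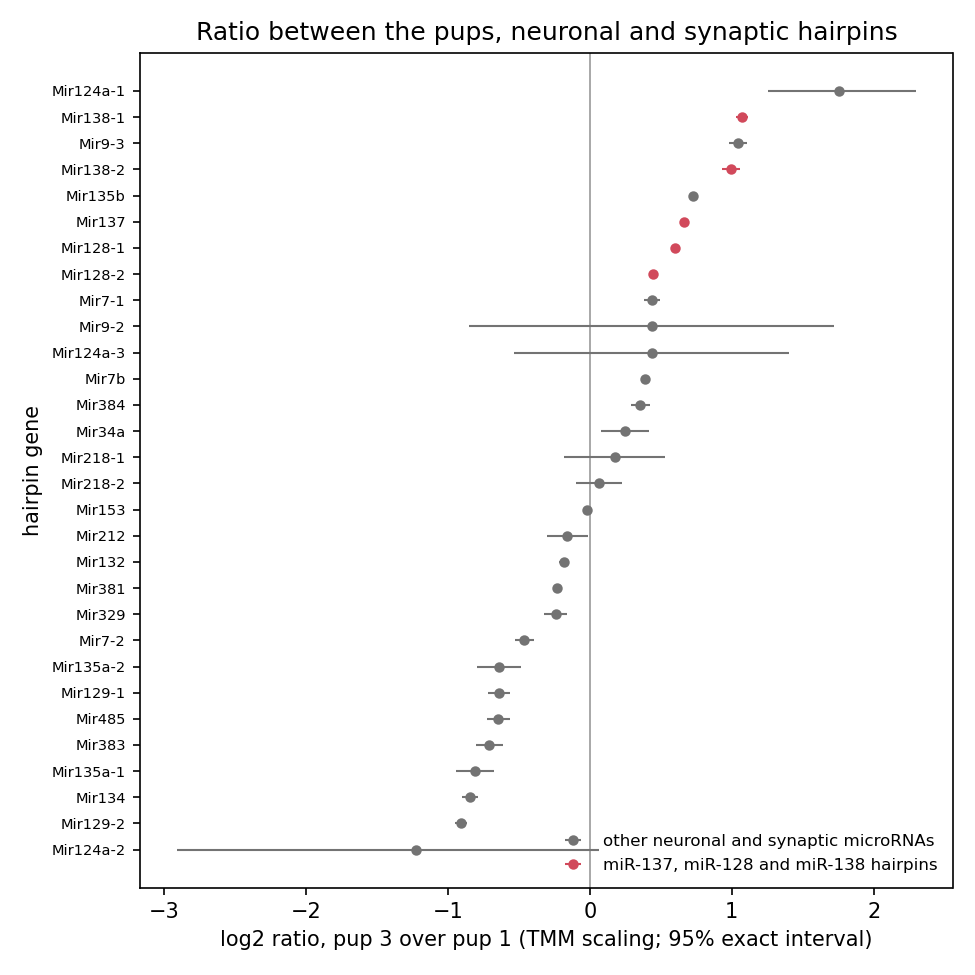
Log2 ratio of pup 3 over pup 1 (x axis, TMM scaling) for the 5 hairpins (red) and 25 other neuronal and synaptic hairpin genes (grey), ordered by ratio, with 95% exact binomial intervals that cover counting error. The red points lie between 0.45 and 1.07, and the grey points lie on both sides of 0.

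The genes nearest in level over both libraries were found by the distance in log2 CPM over 2 libraries, a description of level that says nothing of shared control. For Mir137 these were Mir335, Mir130a and Mir100, at distances of 0.20, 0.36 and 0.54. For Mir128-1 they were Mir98, Mir139 and Mir93 (0.22, 0.24 and 0.31), and for Mir128-2 they were Mir7b, Mir130b and Mir125b-2 (0.06, 0.17 and 0.20). Mir138-1 was nearest to Mir425, Mir423 and Mir92-1 (0.24, 0.34 and 0.48). Mir138-2 was nearest to Mir9-3, Mir183 and Mirlet7c-1 (0.03, 0.26 and 0.36). Mir9-3, a hairpin of miR-9, a microRNA of neural progenitors and neurons, had 382 CPM in pup 1 and 684 CPM in pup 3, beside 387 and 672 CPM for Mir138-2.

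None of the 4 genes whose microRNAs hold the letters of the miR-128-3p seed at a shifted place was called higher in pup 3. Mir27b had 1041 CPM in pup 1 and 634 CPM in pup 3, a log2 ratio of -0.51, and Mir27a had 133 and 71.9 CPM, a log2 ratio of -0.69. Both were called lower in pup 3 (exact binomial test, adjusted p = 3.97e-93 and 4.18e-21). Mir497b had 1303 and 1094 CPM and a log2 ratio of -0.05 (exact binomial test, adjusted p = 0.0177), and Mir216a had 11.2 and 6.77 CPM and was not called. The counts of these 4 genes pool both strands and both arms, and their split is not given here. They are therefore levels of the genes and need not be levels of the microRNAs with these letters. The miR-27 hairpins thus differed between the pups in the direction opposite to that of the miR-128 hairpins.

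Markers of other cell types also differed between the pups, beside the higher levels of the 5 hairpins in pup 3. The counts of markers called below stand beside the 30.2% of all genes tested that were called higher and the 32.8% called lower. The neuron list (Mir9-3, which progenitors also express, and the Mir124a hairpins) summed to 391 CPM in pup 1 and 702 CPM in pup 3, with 2 of 4 called higher. Mir9-3 held 382 and 684 CPM of this, and the Mir124a hairpins were each below 15 CPM in both pups. These hairpins belong to families with several copies, and reads that map to several places are missing from their counts. The list is therefore no measure of how much miR-9 or miR-124 the tissue held. The epithelial list, led by Mir429, summed to 5344 and 12018 CPM, with 6 of 7 called higher. Its members did not move alike. Mir203 had 1642 and 1502 CPM and a TMM-scaled log2 ratio of only 0.07, and Mir205 had 16.8 and 17.3 CPM and was not called. The other members had log2 ratios from 1.48 (Mir429) to 2.18 (Mir200a). The erythroid list summed to 240.0 and 379 CPM with 1 of 3 higher and 1 lower, and the leukocyte and microglial list to 627 and 758 CPM with 4 of 4 called higher. In the last list the reads of Mir142b lay on the strand opposite to it. Endothelial Mir126a had 40491 and 36865 CPM, with a log2 ratio of 0.06 under TMM scaling and -0.14 under total counts, and the choroid plexus and multiciliated list summed to 13902 and 11022 CPM with 1 of 7 called higher and 3 lower. The oligodendrocyte list summed to 652 and 676 CPM (1 of 3 higher, 2 lower), and the mural and mesenchymal list to 5924 and 5271 CPM (1 of 4 tested higher, 3 not called). The Hox list, which marks tissue behind the forebrain, summed to 196 and 148 CPM with 1 of 5 tested called higher, 3 lower and Mir196a-1 at 0 in both pups, and the muscle list to 169.5 and 80.6 CPM with 3 of 3 tested called lower and Mir1a-1, Mir133a-1 and Mir133a-2 at 0 in both. The hairpins at 0 also belong to families with several copies. A count of 0 does not show that their microRNAs were absent, since reads that map to several places belong to no gene. Under total-count scaling, 5 epithelial, 2 leukocyte and microglial, 0 mural and mesenchymal, 0 Hox and 2 neuron markers were called higher, and 1, 0, 2, 3 and 1 lower, while endothelial Mir126a was called lower. The calls of the other 4 lists had the same counts. The part of these cell types in the ratios of the 5 hairpins was not tested.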

How the data were processed

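Small RNA from 2 forebrains of newborn mice was analysed as 1 group of 2 replicates. The deposited tables hold raw read counts for each microRNA gene. Per the notes that accompany them, the authors used assembly mm10 and genome annotation M4. The aligner and the counter: not given in the sources used here. There are 3 value columns without headings. The first equals the sum of the others in every gene, and these were read as sense and opposite strand. The one with nearly all reads of known microRNAs was taken as sense. The first was used. The 4 tallies that name no gene stayed out of library sizes and tests: of all reads, 43.0% and 43.5% mapped to several places, 14.9% and 14.4% were unmapped and 1.85% and 1.26% lay in no gene (pup 1 and pup 3). The notes give single-place and all-read signal tracks, which were not used here.

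Of 1973 identifiers, 1894 matched GENCODE M21 (GRCm38, the assembly that mm10 names), which gave symbols, positions and hosts. Sequences came from RefSeq (GRCm38.p6). CPM is a count per 1000000 assigned reads. Ratios between pups used counts plus 0.5 and edgeR 4.0.16 TMM factors (1.07 and 0.933), tested by an exact binomial test (two-sided, conditional on the gene's total), Benjamini-Hochberg adjusted at 0.05 over 460 genes with 20 counts or more. With 1 group there is no contrast for an edgeR model, and p-values measure only the gap between these libraries against counting error. Wilson and exact intervals are at 95%. Alternatives were DESeq2 1.42.0 size factors, total counts, other count minimums, another added count, the sense column, another denominator, hairpin length and each pup alone. Hairpins were folded with RNAfold 2.7.2, aligned with biopython 1.88 and searched with blastn 2.17.0. R was version 4.3.3, Python 3.11.15 and scipy 1.17.1.

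The hairpins and the gene lists were chosen with earlier results of these data known. Named by rule were the 5 hairpins, the 3 genes nearest in level to each, microRNA genes within 10000 bases, genes with the same seed, and the 3 most abundant genes of the neuronal and synaptic list. The miR-27, miR-216a and miR-497b genes were added after the data were seen. On simulated counts for pup 3 over pup 1, with counting error only, the test called 66.0% of 50 genes changed 1.25-fold, 78.0% at 1.5-fold, 82.0% at 2-fold, 94.0% at 4-fold, and 2.26% of 265 that were left as they were. Genes that fell below the count minimum counted as not called, with 46 of 50 tested at 2-fold and 49 of 50 at 4-fold. The counts were drawn with the error that the test assumes, so this checks the procedure and not the spread between pups.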

Additional observations from a re-analysis of the deposited data

How the results depend on the processing

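All 5 hairpins stayed higher in pup 3 and past the threshold of the exact binomial test under all 6 alternatives run on them. Several of these could hardly move the ratios. The count minimums and the other added count left them the same to the digits given here. The sense column held the same counts for the 5 hairpins and changed only their scaling, so the alternatives tried the scaling alone. Their log2 ratios ran from 0.46 to 0.68 for Mir137, 0.40 to 0.61 for Mir128-1, 0.25 to 0.46 for Mir128-2, 0.87 to 1.08 for Mir138-1 and 0.80 to 1.01 for Mir138-2, and the largest adjusted p was 1.14e-73. The number of all genes called was 290, and 276 to 304 under the alternatives. Of called genes, 47.9% were higher in pup 3, and 32.2% under total-count scaling.

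Taking all reads of a library as the denominator lowered the mean levels to 11757 (Mir137), 2402 (Mir128-1), 1125 (Mir128-2), 441 (Mir138-1) and 215 (Mir138-2) per 1000000 reads, and the family shares to 1.18% (miR-137), 0.353% (miR-128) and 0.0656% (miR-138), since that denominator also holds unassigned reads. Per annotated base, the mean log2 ratio was 1.20 for Mir128-1 over Mir128-2, against 1.08 per hairpin, and 0.55 for Mir138-1 over Mir138-2, against 1.03, as the hairpins differ in length.

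Without replicate 1 or replicate 2 the value is that of the other pup. Levels ran from 24345 to 33595 CPM (Mir137), 5104 to 6733 (Mir128-1), 2539 to 3010 (Mir128-2), 767 to 1406 (Mir138-1) and 387 to 672 (Mir138-2). Shares ran from 2.43 to 3.36% (miR-137), 0.764 to 0.974% (miR-128) and 0.115 to 0.208% (miR-138), and copy ratios on the log2 scale from 1.01 to 1.16 (miR-128) and 0.99 to 1.06 (miR-138). No paired analysis was possible because the samples form 1 group. The levels rest on 2 pups, and depth did not limit them: the shallowest count was 3497 reads.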
